A study of Mus musculus with 12 samples.

Results

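In all, 10 genes of the adipocyte program were followed through RNA-seq of mouse calvarial osteoblast cultures: the carbonic anhydrase gene Car3 and 9 genes that fat cells are known for, Pparg, Cebpa, Cebpb, Lpl, Cd36, Fabp4, Adipoq, Cfd and Plin1. They are 10 of the 49585 genes in the count table. The 9 were listed by name as adipocyte genes. Car3 was chosen by its values in these same data: it had the largest rise with genotype on day 3 among called genes that were not too low and whose libraries of the 2 genotypes stood apart. Its day 3 values are therefore given as a description, without a test. Of the others, Lpl and Cebpa were higher in Bcl3-/- than in WT libraries on both days and Pparg on day 3, Cebpb and Cd36 were not called between genotypes, and Adipoq, Cfd and Plin1 were almost unread.

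Calvarial cells of C57BL/6J pups aged P3 to P5, of the WT or the Bcl3-/- genotype, were grown to confluence and moved to an osteogenic medium with 50 µg/ml ascorbic acid and 2 mM β-glycerophosphate, which every group received. RNA was taken 3 days and 1 day later, which gave 4 groups of 3 libraries each: Day 3 Bcl3-/-, Day 3 WT, Day 1 Bcl3-/- and Day 1 WT. The codes in their labels were read as 6 cultures, 3 per genotype, each sampled on both days, which the labels do not spell out. A culture was made from up to 3 pooled calvariae, and the labels and the methods differ on whether fewer were used. By that reading of the codes, the 2 days of a genotype share their cultures. The medium holds no adipogenic agent by its description. BCL3 is a nuclear member of the IκB family that binds NF-κB p50 and p52, and Bcl3-/- animals lack it in all their cells.

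Adipocytes form from mesenchymal precursors, which can also become osteoblasts. In the textbook order, C/EBPβ and C/EBPδ come early and are followed by PPARγ and C/EBPα, which then keep each other on and switch on the genes of lipid uptake, lipid storage and secretion. PPARγ activity is known to disfavor the osteoblast fate in marrow stroma. Car3 encodes the cytosolic carbonic anhydrase III, which is very abundant in adipose tissue, slow skeletal muscle and liver.

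Total counts ran between 20009732 and 41953891 reads in genes per library, with a median of 31792039. Bcl3 itself had 9.42 ± 0.999 CPM (reads scaled to the library's total, normalized by TMM) in Day 3 Bcl3-/- libraries, against 14.5 ± 1.59 CPM in Day 3 WT libraries (SD, n = 3 each), which is -0.62 as a log2 fold change, with an SE of 0.12 and an edgeR adjusted p of 0.00863. On day 1 it had 18.8 ± 1.17 CPM in libraries labelled Bcl3-/- and 19.2 ± 2.28 CPM in WT libraries (SD, n = 3 each), so reads of the gene did not separate the genotypes there. Which exons the null allele lacks is not stated in the labels, so these gene totals check the genotype labels on neither day, and every direction below rests on the labels. The markers of osteoblasts summed to between 80600 and 86700 CPM in Day 3 Bcl3-/- libraries, 78300 and 85000 in Day 3 WT, 65400 and 68600 in Day 1 Bcl3-/-, and 38300 and 55400 in Day 1 WT, over 15 genes with none at 0. No pair among the 12 libraries was a copy of another.

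The name adipocyte did not hold for these cultures as a cell type. Adipoq, Cfd and Plin1, which encode adiponectin, adipsin and the coat protein perilipin of the large lipid droplet, are the members closest to the mature fat cell, and each was at or near 0 in every library. Cidec and Lep, a lipid droplet protein and leptin, had no read in any of the 12 libraries. The 10 genes are therefore called the listed genes here, and no cell type is drawn from them. In bulk RNA, fewer cells of a type and less RNA per cell cannot be told apart.

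Adipoq, the adipocyte hormone gene, had 1, 13 and 0 reads in the Day 3 Bcl3-/- libraries, 0, 1 and 2 in Day 3 WT, 2, 1 and 0 in Day 1 Bcl3-/- and 0, 0 and 2 in Day 1 WT. Cfd, the gene of complement factor D, had 1, 7 and 2 reads in Day 3 Bcl3-/-, 0, 0 and 1 in Day 3 WT, 0, 1 and 2 in Day 1 Bcl3-/- and none in Day 1 WT. Plin1 had 1, 4 and 0 reads in Day 3 Bcl3-/-, 0, 0 and 2 in Day 3 WT, 2, 4 and 0 in Day 1 Bcl3-/- and 0, 1 and 0 in Day 1 WT. Over all 12 libraries that is 22, 14 and 14 reads. The single library with more than 3 reads of Adipoq or Cfd was Day 3 Bcl3-/- replicate 2, from the culture coded B4, which on day 1 gave 1 read of each. A count of 0 in a library allows a level of up to 3 counts, which was between 0.0683 and 0.158 CPM at these depths, and covers counting error only. All 3 genes fell below the filter on low counts and were not tested, so 7 of the 10 genes, Car3 among them, have a fitted value.

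Per transcript length, the listed genes spread over a wide range. The authors' FPKM (fragments scaled to transcript length and depth) averaged 74.3 for Cebpb and 38.8 for Lpl over the 12 libraries, which put them above 91.4% and 83.3% of the genes tested. Cd36 at 5.79, Pparg at 5.46, Cebpa at 5.11 and Car3 at 4.41 FPKM stood between the 39.9th and the 44.6th percentile. Fabp4, the fatty acid binding protein that is among the most abundant proteins of fat cells, averaged 1.82 FPKM, at the 28th percentile. Adipoq, Cfd and Plin1 averaged 0.0531, 0.0534 and 0.0212 FPKM.

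**Figure D1:**
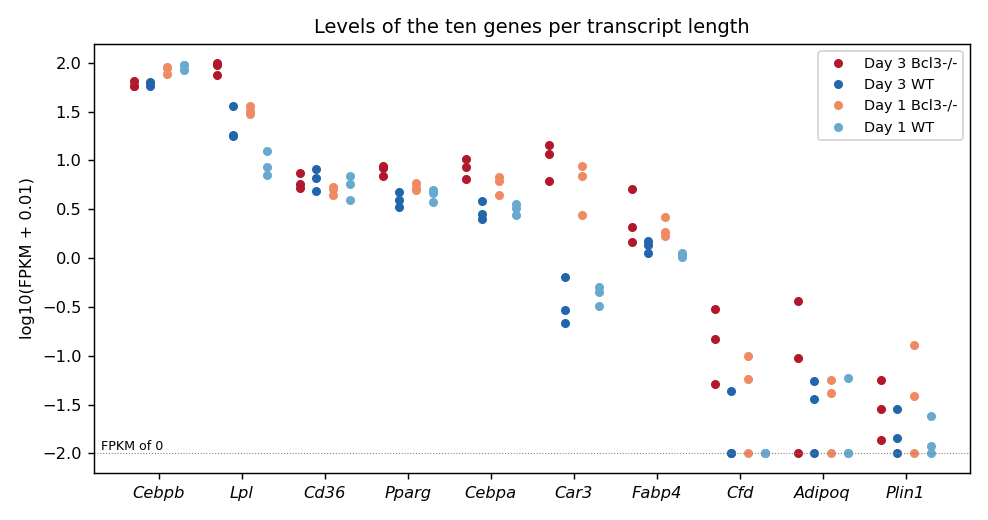
Levels of the 10 listed genes per transcript length, as log10 of FPKM + 0.01, in each of the 12 libraries (points; colors, the 4 groups). Cebpb and Lpl lie highest, the points of Adipoq, Cfd and Plin1 lie at or near an FPKM of 0 (dotted line), and the Car3 points of both Bcl3-/- groups lie apart from those of both WT groups.

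Pparg and Cebpa encode the transcription factor pair at the center of the program, and the bases just before their starts are shown because the genes had their highest levels together, in the Day 3 Bcl3-/- libraries. The sequences are those of RefSeq on GRCm38.p6, 250 bases before a start site, both on the plus strand. The Cebpa window lies within the span of Gm45091, an antisense gene on the opposite strand. Capitals mark matches to the C/EBP motif in Pparg and to the TATA box in Cebpa. For Pparg, which has 3 start sites in the table, the most downstream is shown, that of the adipocyte form γ2, at chr6:115421816-115422065. For Cebpa the window is chr7:35119043-35119292.
Pparg: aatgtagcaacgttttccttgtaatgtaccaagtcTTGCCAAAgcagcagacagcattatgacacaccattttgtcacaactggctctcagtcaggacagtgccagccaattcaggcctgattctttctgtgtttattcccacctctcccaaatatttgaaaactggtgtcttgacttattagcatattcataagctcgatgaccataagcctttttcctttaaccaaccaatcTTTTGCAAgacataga
Cebpa: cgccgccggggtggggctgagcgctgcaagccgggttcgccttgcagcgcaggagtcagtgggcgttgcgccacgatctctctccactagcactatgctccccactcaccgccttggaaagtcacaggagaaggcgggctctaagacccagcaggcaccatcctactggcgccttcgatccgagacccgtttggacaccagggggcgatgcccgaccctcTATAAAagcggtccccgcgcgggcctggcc

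The letters of 4 motifs were searched on both strands of the promoter windows of the 7 listed genes that the RefSeq table holds, Car3, Fabp4 and Lpl not being among them. The C/EBP motif, spelled TTGCNNAA, matched the downstream Pparg window at bases 215 to 208 before the start on the plus strand and at bases 16 to 9 on the minus strand. It also matched the Plin1 window at 2 places, while 9.56% of the 32851 promoter windows hold it. The TATA box, TATAAA, lay at bases 30 to 25 before the Cebpa start and also in another Pparg window, and is found in 12.4% of windows. The κB motif, found in 0.356% of windows, and the PPAR-RXR direct repeat, found in 0.0335%, had no match in the windows of the listed genes, which says only that these letters are not there. The matches do not overlap each other, and a match is a description of the letters alone. The counts are per gene and do not separate the 3 Pparg starts.

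Pparg lies on chromosome 6 at 115360951-115490399 and encodes the nuclear receptor that is needed for fat cell formation. It had 12.1, 14.8 and 14.9 CPM in Day 3 Bcl3-/- libraries, 6.76, 6.05 and 6.70 in Day 3 WT, 7.41, 9.65 and 8.30 in Day 1 Bcl3-/-, and 7.24, 6.97 and 6.47 in Day 1 WT. The 3 Day 3 Bcl3-/- libraries were above the other 9, and the groups of day 1 did not overlap either, though by a narrow margin. On day 3 the gene was higher in Bcl3-/- libraries by 1.10 on the log2 scale (SE 0.13, edgeR adjusted p = 0.00105), or 2.14-fold. On day 1 its value of 0.29 (SE 0.13, edgeR adjusted p = 0.146) missed the threshold. In Bcl3-/- cultures Pparg rose between the days by 0.72 (SE 0.13, edgeR adjusted p = 0.00107), and in WT cultures the log2 difference of day 3 against day 1 was -0.08 (SE 0.13, edgeR adjusted p = 0.656).

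The test of that contrast itself, the genotype difference on day 3 minus that on day 1, gave 0.81 for Pparg (SE 0.18, edgeR adjusted p = 0.056). In the fit that compares the days within each culture, which rests on the reading of the codes, the edgeR adjusted p was 0.0431. With DESeq2 the adjusted p was 0.00481. The value ranged between 0.64 and 0.93 over 21 alternatives, of which 6 passed, including those without Day 3 Bcl3-/- replicate 1 (edgeR adjusted p = 0.0274) and without Day 1 WT replicate 3 (0.0299). By culture, the day 3 level over the day 1 level was 1.64, 1.53 and 1.80 in B3, B4 and B6 of the Bcl3-/- genotype, against 0.934, 0.868 and 1.04 in W1, W2 and W4 of the WT.

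Cebpa, on chromosome 7 at 35119293-35121928, encodes the partner of PPARγ that is needed for insulin-sensitive fat cells. It had 16.4, 22.2 and 27.2 CPM in Day 3 Bcl3-/- libraries, 7.11, 6.51 and 9.56 in Day 3 WT, 10.5, 16.8 and 15.5 in Day 1 Bcl3-/-, and 6.65, 7.67 and 8.81 in Day 1 WT. All 6 Bcl3-/- libraries were above all 6 WT libraries, and the WT groups of the 2 days overlapped. The log2 fold change of Bcl3-/- against WT was 1.5 on day 3 (SE 0.22, edgeR adjusted p = 0.00265) and 0.88 on day 1 (SE 0.22, edgeR adjusted p = 0.0199). Between the days Cebpa rose in Bcl3-/- cultures by 0.62 (SE 0.22, edgeR adjusted p = 0.045). In WT cultures the log2 difference was 0.00, and the difference of the genotype effects was 0.62 (edgeR adjusted p = 0.477). The call on day 1 was lost in 6 of 21 alternatives, namely on both scales of log2 FPKM that kept all genes (limma adjusted p = 0.0905 and 0.0757), without Day 1 Bcl3-/- replicate 2 or 3 (edgeR adjusted p = 0.0826 and 0.0718) and without Day 1 WT replicate 1 or 2 (0.0886 and 0.0705). The call for time was lost in 10 of 21, with adjusted p up to 0.175, of which 6 left out 1 library (Day 3 Bcl3-/- replicate 2 or 3, Day 3 WT replicate 1, Day 1 Bcl3-/- replicate 1 or 3, or Day 1 WT replicate 2; edgeR adjusted p between 0.0523 and 0.153), while the fit within cultures gave an edgeR adjusted p of 0.0123.

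Cebpb, on chromosome 2 at 167688915-167690418, encodes the C/EBP factor that acts early in fat cell formation and also in inflammation. It had 71.9, 80.9 and 73.1 CPM in Day 3 Bcl3-/- libraries, 77.4, 77.7 and 69.4 in Day 3 WT, 89.9, 104 and 109 in Day 1 Bcl3-/-, and 107, 110 and 98.3 in Day 1 WT. The genotypes overlapped on both days, and each day 3 library was below each day 1 library. The gene fell between the days in Bcl3-/- cultures by 0.42 (SE 0.09, edgeR adjusted p = 0.00291) and in WT cultures by 0.49 (SE 0.09, edgeR adjusted p = 0.000809) on the log2 scale. Its genotype log2 fold changes were 0.01 on day 3 and -0.06 on day 1, with edgeR adjusted p = 0.959 and 0.724. Cebpb overlaps Tmem189 on the opposite strand, the library kit does not mark strand, and reads of the pair cannot be told apart. Cebpa and Pparg overlap antisense genes with at most 16 reads and 1 read in a library.

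**Figure D2:**
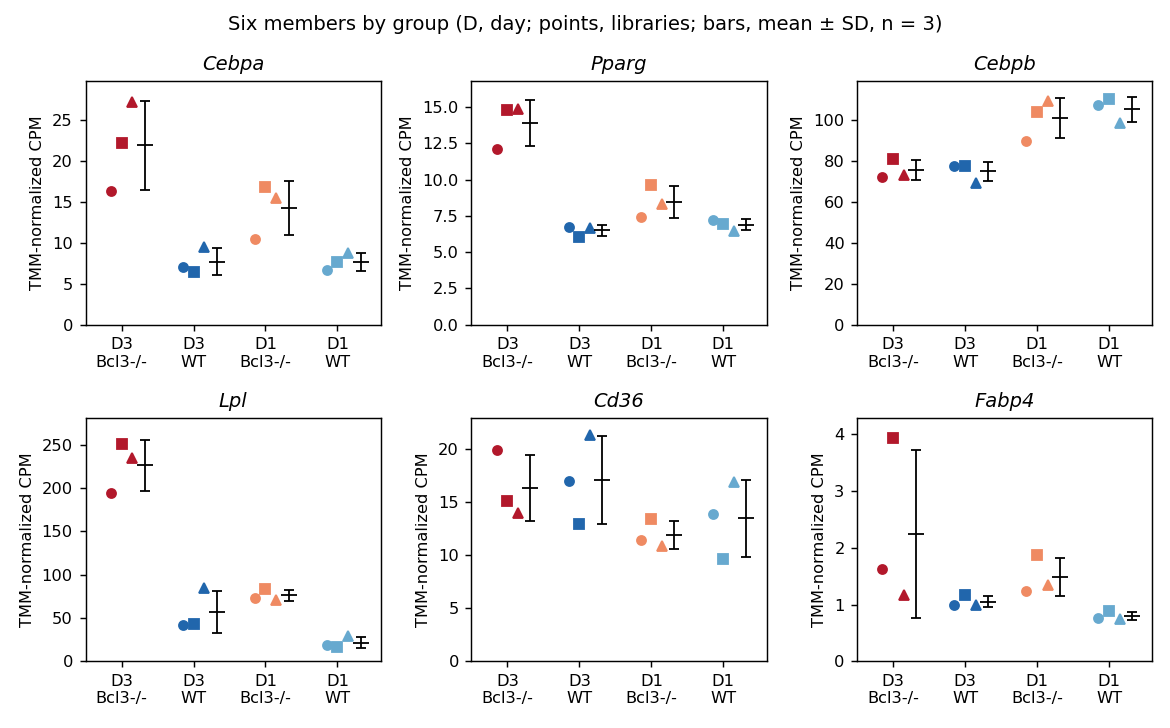
TMM-normalized CPM of 6 listed genes in each library, by group (D, day); circles, squares and triangles are replicates 1, 2 and 3, and bars are the mean ± SD of 3 libraries. Pparg, Cebpa and Lpl are highest in the Day 3 Bcl3-/- libraries, Cebpb is lower on day 3 in both genotypes, and the Cd36 groups of the genotypes overlap.

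Lpl, on chromosome 8 at 68880491-68907448, encodes lipoprotein lipase, which frees fatty acids from circulating triglyceride. It was the most strongly changed of the 6 listed genes tested beside Car3. The gene had 194, 251 and 234 CPM in Day 3 Bcl3-/- libraries, 42.5, 43.4 and 85.2 in Day 3 WT, 73.6, 83.7 and 71.1 in Day 1 Bcl3-/-, and 19.4, 16.8 and 29.0 in Day 1 WT. The genotypes were apart on each day and the days were apart in each genotype, while the Day 1 Bcl3-/- and Day 3 WT ranges overlapped through Day 3 WT replicate 3. Bcl3-/- libraries were higher by 1.98 on day 3 (SE 0.26, edgeR adjusted p = 0.00175) and by 1.81 on day 1 (SE 0.26, edgeR adjusted p = 0.00145) on the log2 scale. Between the days Lpl rose by 1.57 in Bcl3-/- cultures (SE 0.26, edgeR adjusted p = 0.000741) and by 1.39 in WT cultures (SE 0.26, edgeR adjusted p = 0.00128). All of these 4 calls held in each of 21 alternatives. The difference of the genotype effects between the days was 0.18 (SE 0.36, edgeR adjusted p = 0.908).

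Cd36, on chromosome 5 at 17781690-17888801, encodes a fatty acid translocase and scavenger receptor that macrophages and endothelium also carry. It had 19.9, 15.1 and 14 CPM in Day 3 Bcl3-/- libraries, 17, 13 and 21.3 in Day 3 WT, 11.4, 13.4 and 10.9 in Day 1 Bcl3-/-, and 13.9, 9.70 and 16.9 in Day 1 WT. The genotypes overlapped on both days, with log2 fold changes of -0.06 on day 3 (edgeR adjusted p = 0.884) and -0.18 on day 1 (edgeR adjusted p = 0.646). The differences of day 3 against day 1 were 0.46 in Bcl3-/- cultures (edgeR adjusted p = 0.124) and 0.35 in WT cultures (edgeR adjusted p = 0.239). In the fit within cultures the WT value passed, with an edgeR adjusted p of 0.00663, and every WT culture was higher on day 3, by 1.22 to 1.34 times. Every Bcl3-/- culture was higher on day 3 too, by 1.75, 1.13 and 1.29 times in B3, B4 and B6, without passing.

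Lpl and Cd36 are also genes of macrophages, and 20 macrophage markers, none at 0 in a group, summed to 1100, 777 and 552 CPM in Day 3 Bcl3-/- libraries, 927, 971 and 1360 in Day 3 WT, 464, 472 and 518 in Day 1 Bcl3-/-, and 510, 407 and 631 in Day 1 WT. The sum was highest in Day 3 WT replicate 3, which also had the most Lpl and Cd36 among the WT libraries. Between genotypes on day 3 none of the 20 was higher, 3 were lower (Cx3cr1, Csf1r and Msr1) and 17 were not called. Of all genes, 5.6% were lower there, and the lower markers numbered 2 to 9 over the alternatives. On day 1 a single one, Msr1, was lower, where 6.26% of all genes were. Between the days, 10 of the 20 rose and 1 fell in Bcl3-/- cultures and 14 rose in WT cultures. Of all genes, 16.2% rose and 17.2% fell in Bcl3-/- cultures, and 20.6% rose in WT cultures. In the fit within cultures 9 rose and none fell in Bcl3-/- cultures and 18 rose in WT cultures. The part of macrophages in the rise of Lpl with time was not tested.

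Fabp4, on chromosome 3 at 10204088-10208576, had 1.63, 3.92 and 1.16 CPM in Day 3 Bcl3-/- libraries, 0.985, 1.17 and 1.00 in Day 3 WT, 1.24, 1.87 and 1.35 in Day 1 Bcl3-/-, and 0.769, 0.888 and 0.746 in Day 1 WT. On day 3 the ranges overlapped through Day 3 Bcl3-/- replicate 3, and on day 1 they did not. The log2 fold changes of 1.11 on day 3 (SE 0.37, edgeR adjusted p = 0.0796) and 0.88 on day 1 (SE 0.39, edgeR adjusted p = 0.157) both missed the threshold. The day 3 value was 0.42 without Day 3 Bcl3-/- replicate 2, the library of the 13 Adipoq reads, and passed without replicate 3 (1.40, edgeR adjusted p = 0.0273) or with DESeq2 (adjusted p = 0.0461). Leaving out that replicate 2 also took the day 1 edgeR adjusted p to 0.0334, the 4 groups sharing one estimate of the spread.

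Counted together, 3 of the 6 tested genes beside Car3 were higher in Bcl3-/- libraries on day 3 (Lpl, Cebpa and Pparg) and none was lower, where 10.4% of all 16318 genes tested were called, 4.78% as higher and 5.6% as lower. On day 1, 2 of the 6 were higher (Lpl and Cebpa) and none lower, against 15.3% of all genes called, 9.03% as higher and 6.26% as lower. In Bcl3-/- cultures 3 rose with time (Lpl, Pparg and Cebpa) and 1 fell (Cebpb), where 33.4% of genes were called, 16.2% as higher and 17.2% as lower. In WT cultures 1 rose (Lpl) and 1 fell (Cebpb), where 38.5% were called, 20.6% as higher and 17.9% as lower. The median log2 fold change of the 6 was 1.11 on day 3 and 0.59 on day 1, while that of all genes was 0 on both days. The median with time was 0.62 in Bcl3-/- cultures and 0.17 in WT cultures, again beside 0 for all genes. The comparisons share groups of libraries and are not separate support for each other.

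Groups did not overlap, with Bcl3-/- higher, for 3 of the 6 on day 3 (13.1% of all genes tested) and 4 of the 6 on day 1 (19.4%), where Pparg and Fabp4 joined Lpl and Cebpa. None of the 6 passed the test of a difference between the genotype effects of the days in the 4-group edgeR fit. Of all genes, 1.12% passed it, 0.172% as higher and 0.95% as lower. The smallest unadjusted edgeR p among the 6 was that of Pparg, 0.000694. By adjusted p, Pparg passed in 6 of 21 alternatives, among them DESeq2 and the edgeR fit within cultures.

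**Figure D3:**
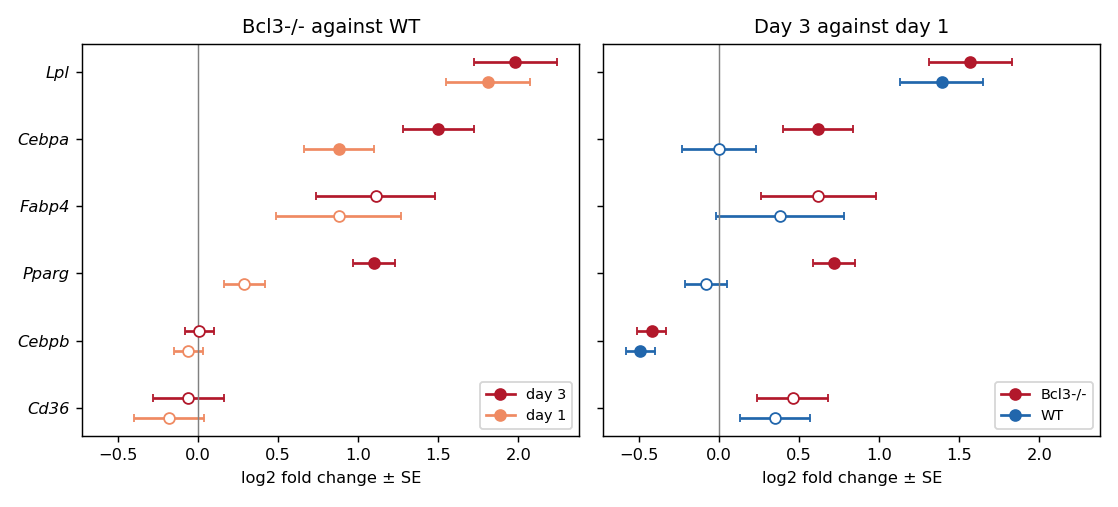
Log2 fold change ± SE of 6 listed genes from the edgeR fit, for Bcl3-/- against WT (left; day 3 and day 1) and for day 3 against day 1 (right; Bcl3-/- and WT). Filled points passed an adjusted p of 0.05: Lpl in all 4 contrasts, Cebpa in 3, Pparg in 2, Cebpb with time alone, and Fabp4 and Cd36 in none.

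Car3 lies on chromosome 3 at 14863512-14872523, on the plus strand. It had 22.9, 17.8 and 8.26 CPM in Day 3 Bcl3-/- libraries, or 705, 551 and 157 reads, against 0.352, 0.706 and 0.301 CPM, or 10, 23 and 12 reads, in Day 3 WT. In Day 1 Bcl3-/- libraries it had 12.4, 9.00 and 3.85 CPM, or 489, 264 and 117 reads, against 0.452, 0.637 and 0.639 CPM, or 10, 28 and 24 reads, in Day 1 WT. Each of the 6 Bcl3-/- libraries was above each of the 6 WT libraries on both days. WT levels of all libraries stood below 1 CPM.

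The log2 fold change on day 3, by which Car3 was chosen, was 5.18, or 36.4-fold. Under the same criteria the next genes were Scg2 at 3.46, Arhgap20 at 2.53, Egfl6 at 2.50 and Adh1 at 2.48. Without the criteria on level and overlap, 3 genes of the 16318 tested stood above Car3. On the log2(FPKM + 1) scale, which understates the change of low genes, the value was 3.04.

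On day 1 Car3 was higher in Bcl3-/- libraries by 3.83 on the log2 scale (SE 0.51, edgeR adjusted p = 0.00105), or 14.2-fold. The choice did not use the day 1 genotype difference. The day 1 libraries did enter the choice, through the mean level over all 12 libraries and through the shared fit. The day 1 p is therefore not independent of the choice. The call held in each of 21 alternatives, with values between 2.23 and 4.16 and an adjusted p of at most 0.0168. By their codes these libraries came from the same 6 cultures as those of day 3, so they are no independent sample of animals.

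The order of the group means was 16.3 CPM in Day 3 Bcl3-/-, 8.41 CPM in Day 1 Bcl3-/-, 0.576 CPM in Day 1 WT and 0.453 CPM in Day 3 WT. The ranges of the neighboring Bcl3-/- groups overlapped, and so did those of the WT groups, while Day 1 Bcl3-/- and Day 1 WT did not. Within the Bcl3-/- genotype the cultures kept one order on both days, with B3 highest, B4 next and B6 lowest, and by culture the day 3 level over the day 1 level was 1.85, 1.98 and 2.14. In WT cultures W1, W2 and W4 it was 0.778, 1.11 and 0.471. The ratio between B3 and B6 on day 3 was larger than the ratio between the days in any of the 3 Bcl3-/- cultures.

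**Figure D4:**
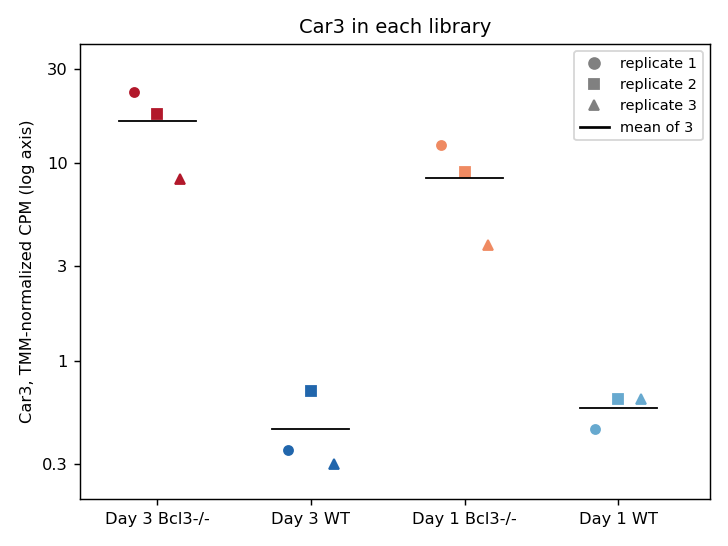
Car3 in each library, as TMM-normalized CPM on a log axis, by group, with the replicate number as the marker and the mean of 3 libraries as a line. The Bcl3-/- libraries lie between 3.85 and 22.9 CPM, all WT libraries lie below 1 CPM, and replicates 1, 2 and 3 of the Bcl3-/- groups, which are cultures B3, B4 and B6, keep the same order on both days.

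None of the other 6 genes tested had that order of cultures on both days, though Cd36 had it on day 3. In Day 3 Bcl3-/- libraries Cebpa was lowest in B3, at 16.4 CPM, where Car3 was highest, and highest in B6, at 27.2 CPM, where Car3 was lowest. Pparg and Lpl were also lowest in B3, at 12.1 and 194 CPM. Over all 12 libraries, the Pearson r of log2 CPM with Car3 was 0.82 for Cebpa, 0.80 for Pparg, 0.78 for Lpl, 0.75 for Fabp4, -0.10 for Cd36 and -0.12 for Cebpb. In the order of all 16318 genes these were places 80, 117, 183 and 281 for the first 4. The pooled r uses the day 3 values by which Car3 was chosen, so genes higher in Bcl3-/- libraries rank high by it. The places therefore add no support to the genotype calls given above. The libraries share cultures and fall into the genotype groups, and no p is given. With the group means taken out, r was -0.64 for Cebpa, -0.51 for Pparg, -0.20 for Lpl, 0.36 for Fabp4, 0.01 for Cd36 and -0.24 for Cebpb, so for Cebpa, Pparg and Lpl the pooled value follows the groups and not the libraries within them.

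The genes most like Car3 by the pooled r, among those averaging 1 log2 CPM or more, were Acad12 (r = 0.94), Prss12 (0.93), Frmd3 (0.90), Efcab7 (0.90), Nfib (0.89), Lifr (0.88), Mgst1 (0.88), Dlk1 (0.88), Zfp14 (0.88) and St3gal1 (0.87). Acad12, of the acyl-CoA dehydrogenase family, averaged 15.9 CPM in Day 3 Bcl3-/-, 3.96 in Day 3 WT, 10.1 in Day 1 Bcl3-/- and 3.38 in Day 1 WT. Mgst1, a microsomal glutathione transferase, averaged 73.5 CPM in Day 3 Bcl3-/-, 32 in Day 3 WT, 53.1 in Day 1 Bcl3-/- and 20.5 in Day 1 WT. Dlk1, the preadipocyte factor whose shed form inhibits fat cell formation, averaged 62.4 CPM in Day 3 Bcl3-/-, 21.6 in Day 3 WT, 71.9 in Day 1 Bcl3-/- and 36.2 in Day 1 WT.

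Carbonic anhydrases hydrate carbon dioxide, and 3 relatives lie beside Car3 on chromosome 3: Car2 at a distance of 13.8 kb, Car1 at 55.1 kb and Car13 at 200.5 kb. Car1, the red cell enzyme, had at most 0.065 CPM in a library. Car2, the cytosolic enzyme of osteoclasts and kidney, had 1.04, 0.162 and 0.316 CPM in Day 3 Bcl3-/- and 8.80, 4.27 and 0.778 CPM in Day 3 WT, and was lower by a log2 fold change of -3.11 (edgeR adjusted p = 0.0327), a call that held in 12 of 21 alternatives. Its ranges overlapped. Car13 was higher in Bcl3-/- libraries on day 1 by 0.68 (SE 0.10, edgeR adjusted p = 0.00136), with means of 35.8 CPM in Bcl3-/- and 22.3 CPM in WT, and on day 3 the means were 45.3 CPM in Bcl3-/- and 38.4 CPM in WT.

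Of 9 other carbonic anhydrase genes tested, Car13 was the single one called as higher and none was called as lower on day 1. Car2 was the single one called on day 3. Of all genes, 15.3% were called on day 1 and 10.4% on day 3. With time 3 rose and 3 fell in Bcl3-/- cultures, where 33.4% of all genes were called, and 4 rose and 1 fell (2 in the fit within cultures) in WT cultures, where 38.5% were. Among them was Car9, the membrane enzyme induced by hypoxia, which rose by 1.28 in Bcl3-/- cultures (edgeR adjusted p = 0.00135) and by 1.43 in WT cultures (edgeR adjusted p = 0.000496). Car8, a relative without catalytic activity, fell by 2.16 in Bcl3-/- cultures (edgeR adjusted p = 1.35e-05) and by 2.50 in WT cultures (edgeR adjusted p = 8.01e-06).

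Car3 is also a gene of slow skeletal muscle, and muscle markers were read beside it. Over 28 of them the sum was 31.6, 50.6 and 37.9 CPM in Day 3 Bcl3-/- libraries, 20.7, 21.7 and 21.0 in Day 3 WT, 32.7, 63.5 and 34.8 in Day 1 Bcl3-/-, and 20.2, 24.8 and 23.1 in Day 1 WT. On day 3, 4 of 19 tested were higher in Bcl3-/- libraries and 15 were not called, and on day 1, 5 were higher and 14 were not called, where 4.78% and 9.03% of all genes were higher. The counts of higher ones ran between 1 and 5 and between 2 and 9 over the alternatives. The median log2 fold change of the 19 was 1.04 on day 3 and 1.12 on day 1. Actn3, fast-fiber α-actinin, had means of 12.9 CPM in Day 3 Bcl3-/- and 5.26 CPM in Day 3 WT (log2 fold change 1.29, edgeR adjusted p = 0.00262). Myh8, the perinatal myosin heavy chain, had means of 2.68 CPM in Day 3 Bcl3-/- and 0.634 CPM in Day 3 WT (2.04, edgeR adjusted p = 0.00863). Tnnt1, a troponin gene of slow fibers, was higher by 0.91 on day 3 (edgeR adjusted p = 0.0391), a call that held in 4 of 20 alternatives. On day 1 Tnnt1 was higher by 1.45 (edgeR adjusted p = 0.00415), which held in all 20. Tnni1, another troponin gene of slow fibers, was not called on either day. Ckm, muscle creatine kinase, reached at most 0.307 CPM and Mb, myoglobin, at most 1.84 CPM in a library. The muscle sum was highest in replicate 2 of both Bcl3-/- groups, where Car3 was highest in replicate 1. The part of muscle cells in the Car3 difference was not tested.

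Endothelial markers summed over 12 genes to between 25.7 and 29.1 CPM in Day 3 Bcl3-/- libraries, 15.1 and 17.5 in Day 3 WT, 15.2 and 20.1 in Day 1 Bcl3-/-, and 11.3 and 12.1 in Day 1 WT. Of 8 tested, 1 was higher and 7 were not called on day 3, and 2 were higher and 6 were not called on day 1. Of all genes, 4.78% were higher on day 3 and 9.03% on day 1. Tek, the angiopoietin receptor, was higher on both days, and on day 3 it averaged 16.2 CPM in Bcl3-/- and 6.33 CPM in WT libraries, which is most of the difference between the sums. Markers of adipose progenitors summed over 15 genes to between 2520 and 2920 CPM in Day 3 Bcl3-/- and 2270 and 2400 in Day 3 WT, and to between 2150 and 2350 in Day 1 Bcl3-/- and 1620 and 1840 in Day 1 WT. Of 15 tested, 3 were higher and 1 lower on day 3, where 4.78% of all genes were higher and 5.6% lower. On day 1, 7 of the 15 were higher and 1 lower, where 9.03% of all genes were higher and 6.26% lower. The higher ones numbered 1 to 5 on day 3 and 4 to 9 on day 1 over the alternatives. Cxcl12, a chemokine gene, had means of 587 CPM in Day 3 Bcl3-/- and 307 CPM in Day 3 WT (log2 fold change 0.93, edgeR adjusted p = 0.00305). On day 1 it was higher by 1.46 (edgeR adjusted p = 0.000291), and both calls held in all 21 alternatives. Pdgfra, a receptor of mesenchymal progenitors that calvarial stroma also expresses, had means of 214 CPM in Day 3 Bcl3-/- and 138 CPM in Day 3 WT. Its log2 fold change there was 0.63 (edgeR adjusted p = 0.0476), a call that held in 12 of 21 alternatives. On day 1 Pdgfra had means of 197 CPM in Bcl3-/- and 89.8 CPM in WT libraries (1.13, edgeR adjusted p = 0.00243). Anxa3 was the lower one on both days. The part of such cells in the values of the listed genes was not tested.

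Among 17 other transcription factors and coactivators of adipogenesis, 5 were higher and 2 lower in Bcl3-/- libraries on day 3. Of all genes, 4.78% were higher and 5.6% lower there. On day 1, 9 of the 17 were higher and 1 lower, where 9.03% of all genes were higher and 6.26% lower. The list median was 0.16 on day 3 and 0.29 on day 1 in log2 fold change, beside 0 for all genes. Klf15, a Krüppel-like factor that acts late in fat cell formation, had means of 5.90 CPM in Day 3 Bcl3-/- and 2.89 CPM in Day 3 WT (log2 fold change 1.03, edgeR adjusted p = 0.0143) and 3.56 CPM in Day 1 Bcl3-/- and 1.07 CPM in Day 1 WT (1.69, edgeR adjusted p = 0.00142). Zfp423, a factor of preadipocyte commitment, was higher by 0.52 on day 3 (edgeR adjusted p = 0.0112) and by 1.04 on day 1 (edgeR adjusted p = 0.000333). Ebf1, an early B cell and adipocyte factor, was higher by 0.97 on day 3 (edgeR adjusted p = 0.00224) and by 0.66 on day 1 (edgeR adjusted p = 0.00788). Ppargc1a, the PPARγ coactivator of mitochondrial biogenesis, was higher by 1.67 on day 3 (edgeR adjusted p = 0.0083), with means of 3.58 CPM in Day 3 Bcl3-/- and 1.12 CPM in Day 3 WT, and by 2.65 on day 1 (edgeR adjusted p = 0.00151). Klf5, which acts early with C/EBPβ, was lower, with log2 fold changes of -0.85 on day 3 (edgeR adjusted p = 0.00634) and -0.55 on day 1 (edgeR adjusted p = 0.0257). Over the alternatives the count of higher factors fell to as few as 1 on day 3 and 2 on day 1.

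Of 18 inhibitors of adipogenesis, 1 was higher and 1 lower on day 3, where 10.4% of all genes were called, and 3 were higher and 3 lower on day 1, where 15.3% were, and the others were not called. The list medians were 0.11 on day 3 and 0.04 on day 1 in log2 fold change. Dlk1 was the higher one on day 3, by 1.53 (SE 0.21, edgeR adjusted p = 0.00215), and was also higher on day 1, by 0.99 (SE 0.21, edgeR adjusted p = 0.00829). Nr2f2, the orphan receptor COUP-TFII, was lower on both days, with log2 fold changes of -0.61 on day 3 (edgeR adjusted p = 0.0084) and -0.51 on day 1 (edgeR adjusted p = 0.0119).

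Of 16 genes of triglyceride synthesis and lipogenesis, none was higher and 3 were lower in Bcl3-/- libraries on day 3, where 5.6% of all genes were lower, and 8 were higher and none lower on day 1, where 9.03% were higher. Over the alternatives the lower ones of day 3 numbered 1 to 6 and the higher ones of day 1 numbered 4 to 8. The test of the difference between the days was passed by 4 of the 16, against 1.12% of all genes, and by 0 to 7 over the alternatives. The list had medians of -0.28 on day 3 and 0.26 on day 1 in log2 fold change. Scd1, stearoyl-CoA desaturase, had 196, 158 and 163 CPM in Day 3 Bcl3-/-, 328, 255 and 258 in Day 3 WT, 406, 446 and 426 in Day 1 Bcl3-/-, and 147, 206 and 272 in Day 1 WT. It was the single one of the 16 called in opposite directions on the 2 days, by a log2 fold change of -0.70 on day 3 (edgeR adjusted p = 0.0279) and 1.03 on day 1 (edgeR adjusted p = 0.00317). The difference between those effects was -1.73 (SE 0.25, edgeR adjusted p = 0.0206), and it passed in 14 of 21 alternatives. Acly, ATP citrate lyase, had a difference of -0.99 (edgeR adjusted p = 0.0332), Elovl6, a fatty acid elongase, -0.77 (0.0335 by edgeR) and Scd2, another desaturase, -1.05 (0.0353 by edgeR), each past the threshold in 8 or 9 of 21 alternatives. In the fit within cultures the edgeR adjusted p was 0.0314 for Scd1, 0.0378 for Acly and 0.0381 for Elovl6, and 0.0566 for Scd2, which then missed the threshold. Srebf1, the lipogenic transcription factor, had a difference of -0.69 (edgeR adjusted p = 0.0335), with 12 of 21 alternatives missing the threshold, among them the fit within cultures (edgeR adjusted p = 0.0519).

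Of 16 tested genes of fatty acid capture and transport, beside Lpl, Cd36 and Fabp4, 1 was higher and 4 were lower on day 3. Of all genes, 4.78% were higher and 5.6% lower there. On day 1, 4 of the 16 were higher and none lower, where 9.03% of all genes were higher and 6.26% lower. The list medians were 0.03 on day 3 and 0.32 on day 1. Over the alternatives 1 to 4 were higher and 1 to 4 lower on day 3, and 2 to 7 were higher on day 1. Angptl4, an inhibitor of lipoprotein lipase and a PPAR target, had 23.0, 33.6 and 29.0 CPM in Day 3 Bcl3-/- and 8.37, 14.1 and 11.5 in Day 3 WT. It was higher by 1.33 (SE 0.22, edgeR adjusted p = 0.00401), while on day 1 its log2 fold change was 0.53 (edgeR adjusted p = 0.151). Fabp3, the heart-type fatty acid binding protein, rose with time by 2.02 in Bcl3-/- cultures (edgeR adjusted p = 0.000195) and by 1.89 in WT cultures (edgeR adjusted p = 0.000228). With time 5 of these 16 genes rose and 4 fell (2 in the fit within cultures) in Bcl3-/- cultures. Of all genes, 16.2% rose and 17.2% fell there. In WT cultures 10 of the 16 rose and none fell, where 20.6% of all genes rose and 17.9% fell.

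Of the lipid droplet and lipolysis genes, 15 of 20 were tested. On day 3, 1 was higher (0 to 1 over the alternatives) and 1 lower, where 4.78% of all genes were higher and 5.6% lower. On day 1, 3 were higher (1 to 3) and 2 lower (1 to 2), where 9.03% of all genes were higher and 6.26% lower. G0s2, an inhibitor of adipose triglyceride lipase, had means of 10.8 CPM in Day 3 Bcl3-/- and 4.16 CPM in Day 3 WT (log2 fold change 1.38, edgeR adjusted p = 0.011) and 3.10 CPM in Day 1 Bcl3-/- and 1.20 CPM in Day 1 WT (1.34, edgeR adjusted p = 0.0158). Cav1, caveolin 1, was lower on both days, with means of 157 CPM in Day 3 Bcl3-/- and 299 CPM in Day 3 WT (-0.93, edgeR adjusted p = 0.00138). Plin2, the perilipin of small droplets in most cell types, had between 107 and 152 CPM in every library, against at most 4 reads of Plin1.

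Of the adipokines and their receptors, 4 were higher and 1 lower of 12 tested on day 3. Of all genes, 4.78% were higher and 5.6% lower there. On day 1, 4 of the 12 were higher and 3 lower, where 9.03% of all genes were higher and 6.26% lower. Over the alternatives 0 to 4 were higher on day 3 and 2 to 5 on day 1. Rarres2, the chemerin gene, had means of 4.73 CPM in Day 3 Bcl3-/- and 1.43 CPM in Day 3 WT (log2 fold change 1.71, edgeR adjusted p = 0.0107) and 1.15 CPM in Day 1 Bcl3-/- and 0.315 CPM in Day 1 WT (1.75, edgeR adjusted p = 0.0182). Lepr, the leptin receptor, was lower on both days, with log2 fold changes of -1.32 on day 3 (edgeR adjusted p = 0.0136) and -1.39 on day 1 (edgeR adjusted p = 0.00543). Of the thermogenic genes 6 of 11 were tested, and Ucp1, the uncoupling protein of brown fat, had at most 0.0341 CPM. On day 3, 2 of the 6 were higher (1 to 3 over the alternatives) and none lower, where 4.78% of all genes were higher and 5.6% lower. On day 1, 3 were higher (2 to 3) and 1 lower (0 to 1), where 9.03% of all genes were higher and 6.26% lower. Tbx15 and Ebf3 were higher on both days and Tmem26 on day 1, and Dio2 was the lower one. Of 10 genes of the insulin response, 1 was higher and 1 lower on day 3, where 10.4% of all genes were called. On day 1, 3 of the 10 were higher (0 to 4 over the alternatives) and 1 lower, where 15.3% of all genes were called. Among those higher on day 1 was Slc2a4, the insulin-responsive glucose transporter. It had 2.26 ± 0.12 CPM in Bcl3-/- and 0.931 ± 0.291 CPM in WT libraries (SD, n = 3 each). Its log2 fold change was 1.27 (edgeR adjusted p = 0.00993).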

How the data were processed

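PolyA RNA of 12 libraries was prepared with the SMART-seq v4 kit, which does not mark strand. The authors trimmed reads with Trim Galore, aligned them to GRCm38 with TopHat2 and counted them with HTSeq. The deposited table holds whole-number counts, not normalized, for 49585 genes. Their 5 further entries for reads outside genes, 12.3 to 14.7% per library, were left out. The deposited FPKM values were made by the authors with Cufflinks. Tool versions, the strand setting and the annotation release were not given in the sources used here. Symbols and coordinates were taken from GENCODE M21.

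Genes were kept by filterByExpr in edgeR (4.0.16), 16318 in all, normalized by TMM (factors 0.951 to 1.05), and tested with one quasi-likelihood fit of 4 groups, with Benjamini-Hochberg adjustment over all genes in each contrast and a threshold of 0.05. CPM on the log2 scale had 2 prior counts. On simulated counts the fit was checked to recover set changes. The biological coefficient of variation was 13.5%.

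The listed genes, the other gene lists and the tests were chosen with earlier results of these data known, from general knowledge of fat cells and not from a database. Named list genes are, per contrast, called genes with the smallest adjusted p or with the other direction, and some were left out of the text. Alternatives were RLE size factors, DESeq2 (1.42.0), no or a stricter filter (1 CPM in 6 libraries), only the libraries compared, limma (3.58.1) on log2 FPKM with a pseudocount of 1 or 0.1 or with an FPKM filter, a replicate block, and each library left out. The replicate numbers match the culture codes within a genotype, so they pair the days. Deviations of the paired libraries correlated at 0.24 to 0.33 in WT and -0.16 to -0.02 in Bcl3-/- cultures. Between genotypes the cultures share only a number.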

Additional observations from a re-analysis of the deposited data

Results flagged for a closer look

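For 10 genes of the lists read beside the listed genes, the difference between Bcl3-/- and WT libraries was itself different on day 3 from day 1. Each passed the test of that difference in the fit of all genes, with an edgeR adjusted p under 0.05. Of all 16318 genes tested, 1.12% passed it, 0.172% as higher and 0.95% as lower. The difference on day 3 minus that on day 1, on the log2 scale, was -1.73 for Scd1, -1.05 for Scd2, -0.99 for Acly, -0.77 for Elovl6 and -0.69 for Srebf1, all of lipogenesis. It was -0.96 for Acsl3 and -0.46 for Acsl5, which activate fatty acids. Among markers of other cells it was -2.61 for the macrophage receptor gene Cx3cr1, -1.27 for Spp1, which encodes osteopontin, and 1.34 for the osteoblast factor gene Sp7. In the fit within cultures Scd2, Srebf1 and Cx3cr1 missed the threshold. The number of such genes moved with the setting and with single libraries, as given with the processing, and none of the 6 listed genes tested beside Car3 passed the same test.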

How the results depend on the processing

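Of 735 values of single listed genes under alternatives, 704 kept their side of the threshold or, for Car3 values without a test, stayed near the main value. Another 12 newly passed, 16 no longer passed, and 3 Car3 values without a test moved. No tested value that passed in the main fit or in the alternative changed direction. Values that passed in neither could, as for the Fabp4 interaction, 0.23 in the main fit and -0.46 to 0.52 over the alternatives. With log2(FPKM + 1) and log2(FPKM + 0.1), 1 listed gene in place of 2 was called on day 1, and all genes called numbered 1437 and 1494 in place of 2494 on day 1, 1030 and 978 in place of 1693 on day 3, and 5 and 4 in place of 183 for the interaction of genotype and day. For day 3, fitting only the libraries compared gave 814 genes, 486 higher and 328 lower, where the 4-group fit gave 780 higher and 913 lower, and the replicate block gave 563. For the interaction, 1 listed gene in place of 0 (Pparg) was called with DESeq2, with no filter on low counts, with the filter of 1 CPM in 6 libraries and with the replicate block, and all genes called numbered 488 with DESeq2, 552 with no filter and 292 with the block. Without 1 library, the listed genes called ranged between 1 and 3 on day 1, 3 and 4 on day 3, 3 and 4 with time in Bcl3-/- cultures, and 0 and 1 for the interaction, and all genes called ranged between 1253 and 2905 on day 1, 698 and 1879 on day 3, and 1 and 475 for the interaction. The day 1 count moved by over 1.5 times without Day 1 WT replicate 1 or 2 or any Day 1 Bcl3-/- replicate, and the day 3 count without Day 3 WT replicate 1 or 2 or Day 3 Bcl3-/- replicate 2, while the interaction count moved so without each of the 12. Between the days, where the replicate block follows the cultures, it changed the call of Cd36 with time in WT and of the Pparg interaction and no other call of a listed gene. Between genotypes the numbers share no culture, and the block's effect there says nothing of a weaker difference. The cause of these shifts was not tested. Depth limits Adipoq, Cfd and Plin1, with at most 13 reads in a library, and Car3 in WT, with at most 28. The cultures hold up to 3 calvariae each, which were not separable.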

Other observations

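Among genes that stood beside Car3 on day 3 but belong to none of the lists, Scg2, a granin of secretory vesicles, and Sfrp2, a secreted Wnt modulator, had log2 fold changes of 3.46 and 2.38 for Bcl3-/- against WT libraries and were 2nd and 6th in the order by which Car3 was chosen. They were picked by that order, so no test is given. In the order of likeness to Car3 over the 12 libraries, Vegfd, a lymphatic growth factor gene, had a Pearson r of 0.87, with means of 112 CPM in Day 3 Bcl3-/-, 46.7 in Day 3 WT, 76.2 in Day 1 Bcl3-/- and 41.9 in Day 1 WT. Plpp3, a lipid phosphate phosphatase gene, also had 0.87, with means of 185 CPM in Day 3 Bcl3-/-, 116 in Day 3 WT, 145 in Day 1 Bcl3-/- and 106 in Day 1 WT.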
